A study of Mus musculus with 12 samples.

Results

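The 7 genes described here mark the glutamatergic (excitatory) neurons of the mouse cortex and the layers these neurons occupy. Slc17a7 and Neurod6 mark excitatory neurons in general, Cux2 marks upper layers, Rorb marks layer 4, Fezf2 marks layer 5, and Tbr1 and Foxp2 mark layer 6. They were chosen by name as known markers, with earlier results of these data known. All 7 were among the 15004 genes with at least 10 expected counts in every library. RNA was sequenced from the cortex of C57BL/6J mice that carried Nestin-Cre, either alone (labelled Larp1 WT) or together with floxed Larp1 (Larp1 cKO). Nestin-Cre acts in early progenitors of neurons and some glia, so both genotypes carry Cre and the deletion reaches many cell types, not only the neurons described here. The study's methods give 3 male mice of each genotype and posterior cortex as the tissue, and no age is given for these mice in the sources used here. The labels list 12 samples, 6 of each genotype, numbered as 3 replicates in 2 parts each, while the files are 6 tables named by mouse (678, 687, 688, 698, 700 and 703), which show neither tissue nor genotype. No label, file name or method links these mouse numbers with the genotypes, so every value below is given per library or as the range and median over the 6 libraries, and no comparison between genotypes was made.

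Pyramidal neurons of the cortex are built in an inside-out order, with deep layers born before upper layers, and transcription factors fix both the layer and the target of the axon. Fezf2 directs neurons of layer 5 to project below the cortex, Tbr1 gives layer 6 neurons their projection to the thalamus, and Cux2 and Rorb act in neurons that stay within the cortex or receive input from the thalamus. Slc17a7 encodes the vesicular transporter VGLUT1, which loads glutamate into synaptic vesicles. Neurod6 is a basic helix-loop-helix factor of postmitotic excitatory neurons, and Foxp2 is a forkhead repressor of layer 6 neurons that is also known from the striatum.

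The files list values per transcript, so the start of the transcript with the highest median TPM of each gene, called its leading transcript, can be shown. Larp1 binds the 5′ end of mRNAs with a terminal oligopyrimidine (TOP) motif, defined here as a C at the first base followed by at least 4 pyrimidines. The first 20 bases of the leading transcript of each gene, as annotated in GENCODE M21 on GRCm38, are given 5′ to 3′ with the longest run of pyrimidines in capitals. For Cux2, Cux2-202 is added, since it held the most expected counts. The position of each gene is given in the next paragraph.
Slc17a7-201: actcgcagcctggTTCCCCC
Neurod6-201: agtctaaCCTCCTgtgttga
Tbr1-201: cagCTaaccaatggcaagag
Cux2-210: ttgcagaaggagCTTagttc
Cux2-202: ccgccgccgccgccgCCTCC
Rorb-203: aCCTCTCTCCTCTTTCTCTC
Fezf2-201: tttgggtttgggcggCCCCC
Foxp2-207: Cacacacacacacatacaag
None of the 7 leading transcripts began with a TOP motif, and neither did any other annotated transcript of these genes. Among the leading transcripts of 13620 detected nuclear protein-coding genes, 2.35% did. Rorb-203 is the member closest to the motif, since an A stands first and a run of 19 pyrimidines begins at its second base. With the motif allowed to begin up to 5 bases from the annotated start, 1 of the 7 members (Rorb) held it, against 10.8% of detected protein-coding genes. Of the first 20 bases of Rorb-203, 19 were pyrimidines, where the median over the detected protein-coding genes was 9. These starts are annotated positions and were not measured in these libraries.

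Slc17a7 lies on the forward strand of chromosome 7 (45163949 to 45176142), and its leading transcript has 12 exons and 560 codons. Neurod6 lies on the reverse strand of chromosome 6 (55677822 to 55681263) with 1 annotated transcript of 2 exons and 337 codons. Tbr1, on the forward strand of chromosome 2 (61802930 to 61814114), has a leading transcript of 6 exons and 681 codons. Cux2 spans chromosome 5 from 121856366 to 122050102 on the reverse strand, with 11 annotated transcripts and 1426 codons in its longest reading frame. Rorb spans chromosome 19 from 18930605 to 19111196 on the reverse strand, and its leading transcript has 10 exons and 459 codons. Fezf2 is on the reverse strand of chromosome 14 (12342094 to 12348189), with 5 exons and 455 codons in the leading transcript. Foxp2 spans chromosome 6 from 14901349 to 15441977 on the forward strand, with 20 annotated transcripts and 714 codons in the leading one. Of the genes that overlap a member, Mir7055 (in Slc17a7), Gm25470 (in Foxp2), and Gm15637 and Gm3970 (antisense to Cux2) were listed at 0 TPM in all 6 libraries, although whether the counting used strand is not stated.

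Total expected counts ran from 34689262 to 44463362 per library, and the 15 pairs of libraries all differed by more than sampling noise (chi-square per degree of freedom from 14.8 to 67.5). TPM, a relative abundance, scales counts by transcript length and by the sum over all listed transcripts. Nuclear protein-coding genes held between 22.7% and 28.8% of all TPM, lowest in mouse 700 and highest in mouse 703. Since the TPM of coding genes moves with that share, levels are also given as TPM over nuclear protein-coding genes alone. The summed TPM of 8 pan-neuronal genes ran from 1867 in mouse 700 to 2652 in mouse 703. Larp1 itself ran from 6.28 to 19.96 TPM, and no library was placed in a genotype by that value.

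All 7 genes were present in each of the 6 libraries, and the 2 general markers lay far apart in level. Slc17a7 was at 362.8 TPM in mouse 678, 369.9 in 687, 415.1 in 688, 398.9 in 698, 346.5 in 700 and 491.9 in 703. These values rest on 37736 to 46555 counts per library, so the exact Poisson 95% interval of each is within about 1.01% of the value, which covers counting error only. Mouse 703 stood highest and mouse 700 lowest on the TPM scale, a ratio of 1.42. Only 0.553% of detected genes had a higher median TPM than Slc17a7. As TPM over protein-coding genes the range narrowed to 1391 to 1706, a ratio of 1.23, with mouse 678 lowest.

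Neurod6 was at 21.89 TPM in mouse 678, 19.54 in 687, 19.4 in 688, 21.42 in 698, 15.18 in 700 and 17.4 in 703, from 1192 to 1813 counts. Its order of libraries differed from that of Slc17a7, since mouse 703, the highest in Slc17a7, was the second lowest in Neurod6 by TPM and the lowest over protein-coding genes (60.4, against 83.9 in mouse 678). The ratio of Slc17a7 to Neurod6 within a library therefore ran from 16.6 in mouse 678 to 28.3 in mouse 703. Other genes of excitatory neurons were present throughout. Nrgn, a calmodulin-binding postsynaptic protein and the highest of 9 pan-excitatory markers, was at 619 to 821 TPM. Bhlhe22, a basic helix-loop-helix factor with the widest range of the 9, was at 7.04 TPM in mouse 678, 10.96 in 687, 10.18 in 688, 8.55 in 698, 7.71 in 700 and 14.1 in 703.

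Among layer 6 genes, Tbr1 was at 32.87 TPM in mouse 678, 28.33 in 687, 31.56 in 688, 31.64 in 698, 27.57 in 700 and 39.52 in 703. Over protein-coding genes Tbr1 was the steadiest member, at 115 to 137 with a ratio of 1.19. Foxp2 was the lowest member, at 2.53 TPM in mouse 678, 2.73 in 687, 3.16 in 688, 2.42 in 698, 2.55 in 700 and 3.02 in 703, from 368 to 606 counts. The counting interval of Foxp2 reached up to 10.4% to either side of the value, and the intervals were apart in 4 of 15 pairs of libraries, against 15 of 15 for Slc17a7. The ratio of Tbr1 to Foxp2 ran from 9.99 to 13.1. In bulk RNA, fewer cells of a type and less RNA per cell cannot be told apart, here and in each level that follows.

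Cux2 was at 42.32 TPM in mouse 678, 31.39 in 687, 44.34 in 688, 40.09 in 698, 37.26 in 700 and 44.93 in 703. Mouse 687 was low on both scales, at 128 over protein-coding genes where the other libraries lay at 156 to 182. Rorb, an orphan nuclear receptor of layer 4, was at 9.27 TPM in mouse 678, 12.95 in 687, 14.29 in 688, 11.25 in 698, 9.21 in 700 and 14.45 in 703. The 6 Rorb values fell into a lower pair (678 and 700), a middle value (698) and a higher trio (687, 688 and 703), with no library far from its neighbours.

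Fezf2 varied most. It was at 14.35 TPM in mouse 678, 8.4 in 687, 10.8 in 688, 17.08 in 698, 12.15 in 700 and 8.05 in 703, from 563 to 1225 counts with intervals of at most 8.35% to either side. The highest library (698) held 2.12 times the TPM of the lowest (703), and 2.40 times over protein-coding genes. Counting intervals of Fezf2 were apart in 13 of 15 pairs of libraries by TPM. Libraries high in Fezf2 were not those high in Rorb: mouse 698 and 678 led in Fezf2, and mouse 703 and 688 led in Rorb.

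**Figure D1:**
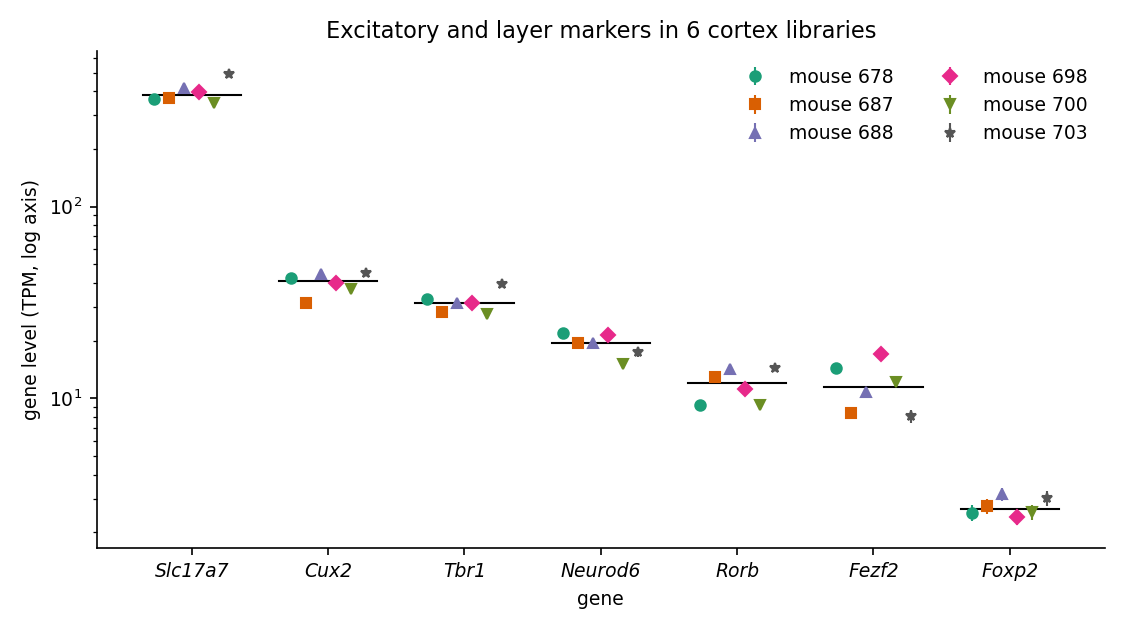
TPM of each gene (y axis, log scale) in the 6 libraries (1 symbol per mouse), with exact Poisson 95% intervals where they exceed the symbol and the median as a line. Slc17a7 sits at 346.5 to 491.9, and Foxp2 at 2.42 to 3.16, with the other 5 genes between.

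By median TPM the order was Slc17a7 (384), Cux2 (41.2), Tbr1 (31.6), Neurod6 (19.5), Rorb (12.1), Fezf2 (11.5) and Foxp2 (2.64). Of the 6 neighbouring pairs in this order, 2 did not differ beyond their spread. Cux2 and Tbr1 overlapped (lowest Cux2 31.39, highest Tbr1 39.52), although within each of the 6 libraries Cux2 was higher, by 1.11 to 1.40 times. Rorb and Fezf2 overlapped and Rorb was higher in 3 of 6 libraries. Their order by median was reversed without mouse 687, 688 or 703, and over protein-coding genes (medians of 47.1 for Rorb and 48.9 for Fezf2). Slc17a7 exceeded Cux2 by 8.57 to 11.8 times within a library. Tbr1 exceeded Neurod6 by 1.45 to 2.27 times, Neurod6 exceeded Rorb by 1.20 to 2.36 times and Fezf2 exceeded Foxp2 by 2.67 to 7.06 times.

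The place of Cux2 above Tbr1 depended on short transcripts. The 3 Cux2 transcripts that hold the longest reading frame took 88.7% to 92.9% of the gene's counts but summed to 18.49 to 26.23 TPM. The other 8, which include a fragment of 420 bases (Cux2-205) and a retained intron (Cux2-211), added 12.9 to 21.62 TPM, because TPM weighs a read by the length of its transcript. Against Tbr1-201 alone (24.81 to 36.5 TPM), the long-frame Cux2 transcripts were lower in each of the 6 libraries, at 0.639 to 0.908 times. With counts scaled by TMM and divided by the count-weighted effective length, Tbr1 was likewise above Cux2 (medians of 30.1 and 25.5 CPM per kilobase).

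The transcript make-up of the genes fell into 2 kinds. In Slc17a7, Neurod6, Tbr1, Rorb and Fezf2, 1 transcript held a median of at least 88.4% of the gene's TPM: 98.1% for Slc17a7-201, 100% for Neurod6-201, 92.7% for Tbr1-201, 88.4% for Rorb-203 and 92.4% for Fezf2-201. In Cux2 and Foxp2 no transcript reached 50%. Cux2-210, which starts inside the gene at 121924921, held 27.98% to 39.1%, and Cux2-202, which starts at 122049851 and has the same 1426 codons, held 18.6% to 22.7%. Foxp2-207, from the upstream start at 14901349, held 30.4% to 41.1%, and the 4 transcripts that start at 15185506 or within 100 bases of it together held 34.1% to 51.7%. Both Foxp2-207 and Foxp2-201, 1 from each of these starts, have 714 codons, while Foxp2-204 has 693. By expected counts rather than TPM, Foxp2-207 held a median of 57.1%, and in Cux2 the first place changed, with Cux2-202 at a median of 46.4% and Cux2-210 at 41.9%. These shares are estimates of the program that divides shared reads among transcripts, and at the depth of Foxp2 the split moved between libraries, with its leading 3 transcripts at 67.6% of TPM in mouse 678 and 92.6% in mouse 698.

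**Figure D2:**
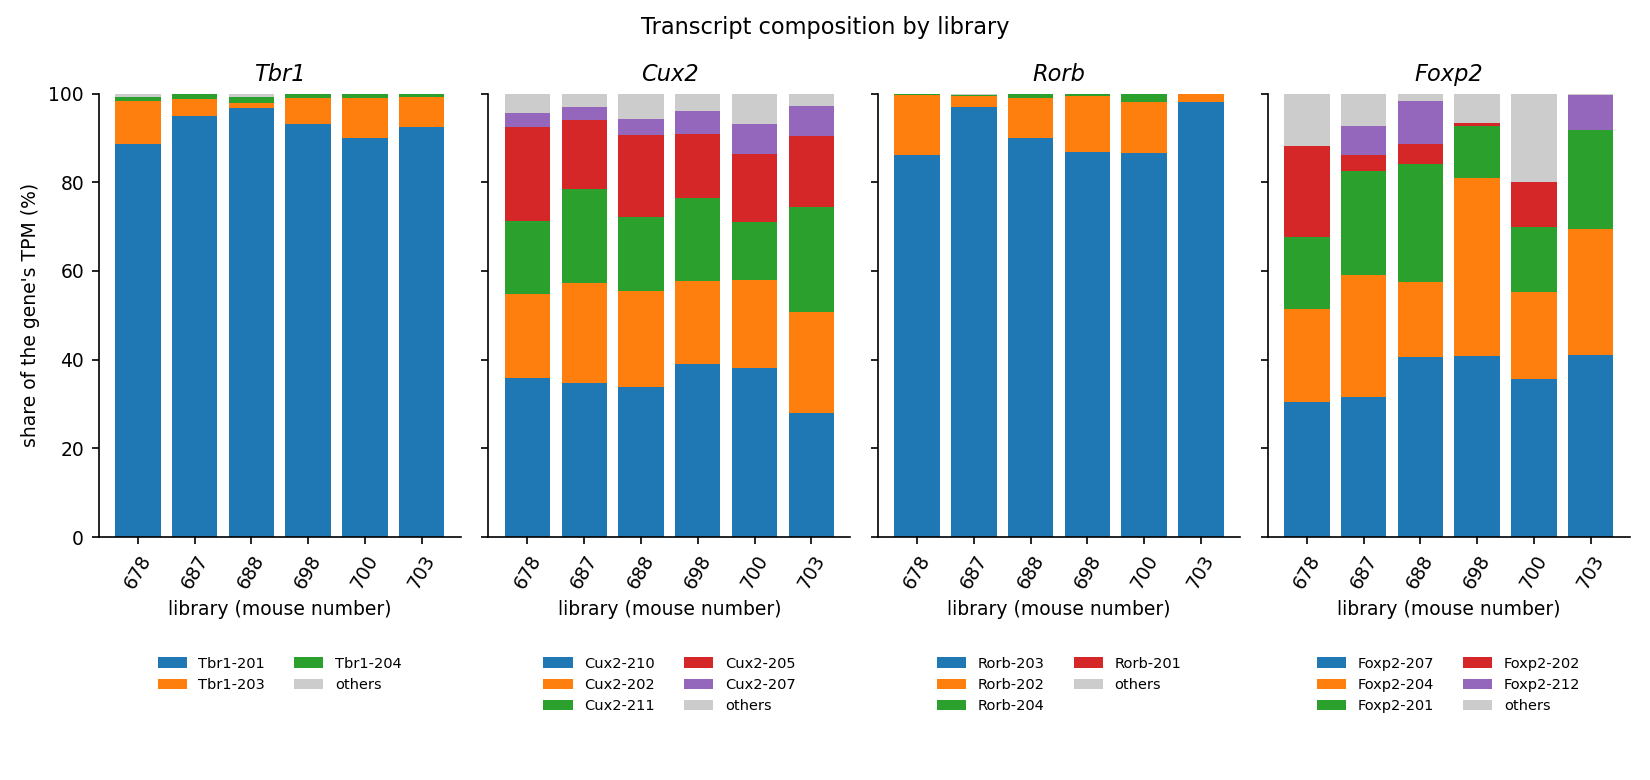
Share of each gene's TPM (y axis, %) taken by its transcripts in the 6 libraries, for Tbr1, Cux2, Rorb and Foxp2, with up to 5 transcripts coloured and the rest in grey. Tbr1-201 and Rorb-203 fill most of each bar, while Cux2 and Foxp2 are divided among several transcripts.

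Rorb has 2 start regions in the annotation. The values given for them are estimates that divide shared reads among transcripts, and the starts themselves were not measured. The upstream start at 19111196 (Rorb-203) was at 7.99 TPM in mouse 678, 12.57 in 687, 12.86 in 688, 9.77 in 698, 7.97 in 700 and 14.16 in 703. The 4 transcripts that begin at 19001117 or within 100 bases of it were together at 1.28, 0.38, 1.43, 1.48, 1.24 and 0.29 TPM in the same order. Their share of TPM was thus 2.01% to 13.8%, lowest in mouse 703 and next lowest in mouse 687. Rorb-201, which has the internal start, was listed at 0 TPM in all 6 libraries, and most of the internal group was Rorb-202 (385 codons). By expected counts Rorb-202, the shorter transcript, held only 0.564% to 4.41% of the gene, and Rorb-203 held 95.5% to 99.4%. The 100 bases before each start, from RefSeq on GRCm38.p6 and on the reverse strand, are shown because the 2 differ in composition, with matches on either strand in capitals, to the CCAAT box, to the GC box letters GGGCGG and to the TATA-like letters TATAAG.
Rorb upstream start, chr19:19111197-19111296: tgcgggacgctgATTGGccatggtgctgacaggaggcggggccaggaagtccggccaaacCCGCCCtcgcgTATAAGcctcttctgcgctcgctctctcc
Rorb internal start, chr19:19001118-19001217: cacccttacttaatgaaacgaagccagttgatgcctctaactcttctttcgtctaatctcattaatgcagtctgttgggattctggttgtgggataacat
GC made up 66% of the 250 bases before the upstream start and 39.2% of those before the internal one, where the median of 32851 RefSeq promoters was 52.4% (quartiles 45.2% and 61.2%). In the 100 bases shown, the upstream start held 1 match each to CCAAT (found in 18.9% of all promoters in a window of that length), GGGCGG (24.7%) and TATAAG (2.95%), and the internal start held none of these. TATAAG was added to the search after this sequence was seen. A match is only a description of the letters. RefSeq promoters were found for 6 of the 7 genes, and Foxp2 was the other.

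The spread over libraries was read against all detected genes. None of the 7 members had 1 library far from the other 5 by Dixon's ratio (its 95% critical value for 6 values), where 7.04% of the 15004 detected genes did. The ratio of highest to lowest TPM reached 1.5 in 2 of 7 members (Rorb at 1.57 and Fezf2 at 2.12), and in 47.9% of detected genes. Over protein-coding genes it was again 2 of 7 (Rorb at 1.65 and Fezf2 at 2.40), and 33.9% of detected genes. The median ratio of the members was 1.43 by TPM against 1.49 for all detected genes, and 1.39 against 1.36 over protein-coding genes. It was above that of detected genes with TMM-scaled CPM (1.45 against 1.31) and with counts over DESeq2 size factors (1.44 against 1.31).

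The range of Fezf2 was wide for a gene of its level. Among the 500 genes nearest to it in median, 2.2% had a larger ratio by TPM and 1.0% over protein-coding genes. In the same order of scales these shares were 21.8% and 5.8% for Rorb, 38.6% and 14% for Cux2, and 37% and 17.4% for Neurod6. They were 40.2% and 66.2% for Tbr1, 52.4% and 55.6% for Slc17a7, and 89.4% and 59.6% for Foxp2.

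**Figure D3:**
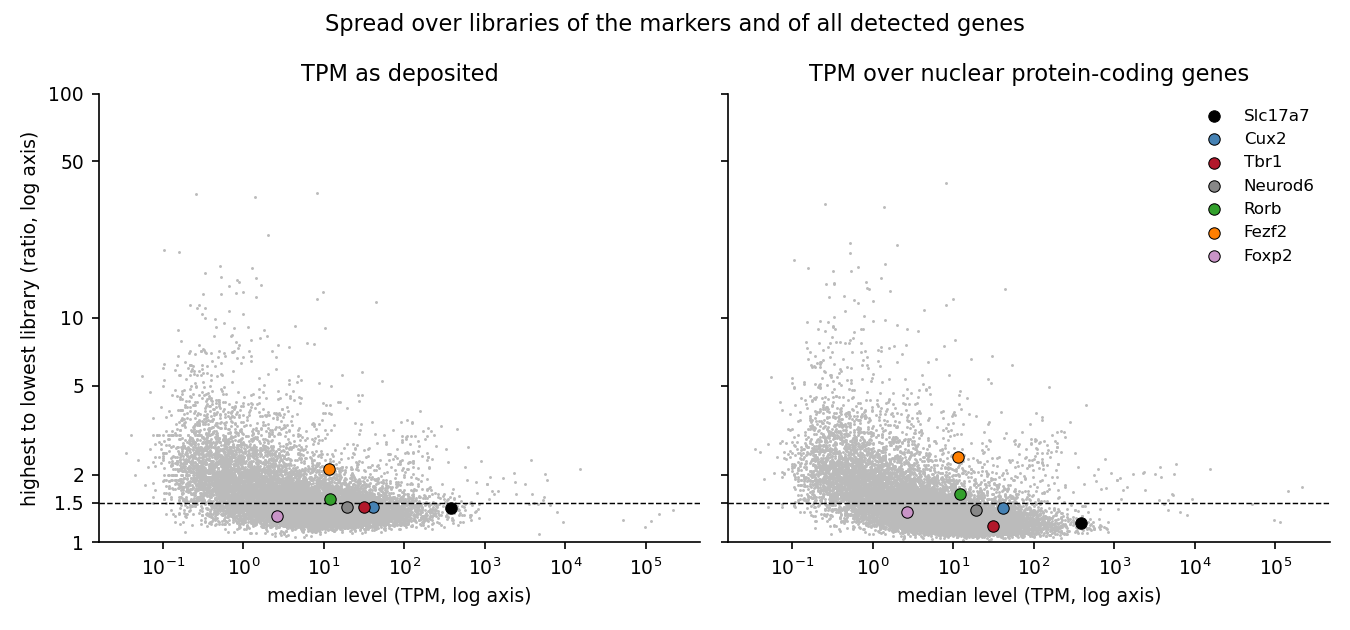
Ratio of highest to lowest library (y axis, log scale) against median TPM (x axis, log scale) for detected genes (grey) and the 7 markers (coloured), by TPM (left) and over nuclear protein-coding genes (right), with a dashed line at 1.5. Fezf2 (2.12 and 2.40) and Rorb (1.57 and 1.65) lie above the line, and 5 genes listed at 0 TPM in a library are not drawn.

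The members did not rise and fall together. Distances between the profiles, taken on log2(TPM + 1) centred on each gene's median over the 6 libraries, were smallest between Slc17a7 and Tbr1 (0.22) and largest between Rorb and Fezf2 (1.36). They rest on deposited TPM, which moves with the coding share of each library. By TPM both Slc17a7 and Tbr1 were lowest in mouse 700 and highest in mouse 703. Over protein-coding genes Slc17a7 was lowest in mouse 678 and Tbr1 in mouse 687. The ratio of Rorb to Fezf2 was 0.646 in mouse 678, 1.54 in 687, 1.32 in 688, 0.659 in 698, 0.758 in 700 and 1.80 in 703. Thus 3 libraries held more Rorb than Fezf2 and 3 held less, a 2.78-fold range. The summed TPM of the upper-layer members (Cux2 and Rorb) over that of the deep-layer members (Fezf2, Tbr1 and Foxp2) moved far less, from 1.004 in mouse 698 to 1.29 in mouse 688 with a median of 1.11. Cux2 and Tbr1 make up most of both sums. The size of this ratio depended on its make-up, with a median of 2.14 by geometric mean of the members (1.87 to 2.58), and of 0.581 with the full layer lists (0.525 to 0.618), where the deep-layer sum was the larger in all 6 libraries.

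**Figure D4:**
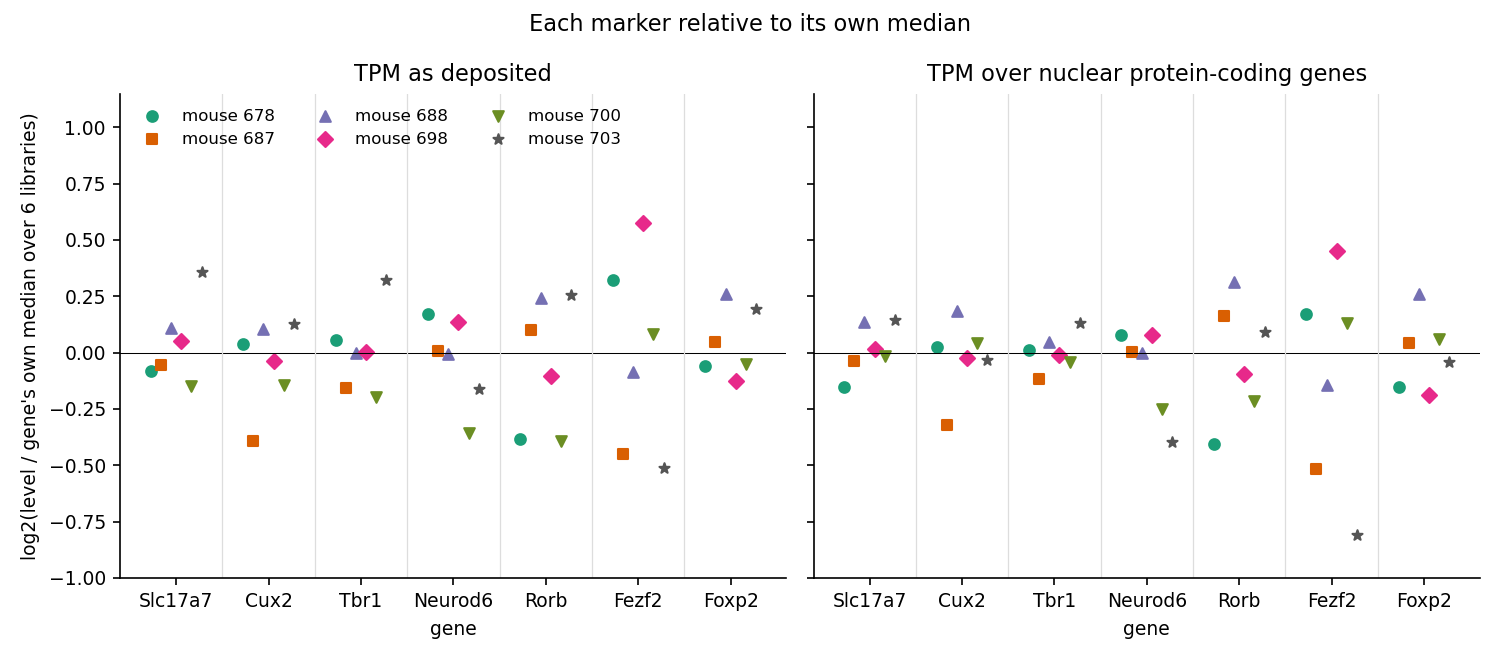
Level of each gene in each library relative to its own median (y axis, log2), by TPM (left) and over nuclear protein-coding genes (right). Mouse 698 is highest and mouse 703 lowest in Fezf2 in both panels, and mouse 703 leads in Slc17a7 and Tbr1.

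The other genes of each layer were read from lists chosen with earlier results of these data known, and each list, without the members, is described by how many of its detected genes reached a ratio of 1.5 over protein-coding genes, beside 33.9% of detected genes. In layer 5, 6 of 11 did. Pcp4, a calmodulin regulator and the highest of them, was at 111 to 211 TPM, lowest in mouse 698, where Fezf2 was highest. Tshz2, a zinc finger factor with the widest range in the list, was at 54.1 TPM in mouse 678, 28.55 in 687, 17.09 in 688, 56.71 in 698, 30.55 in 700 and 12.49 in 703. Mouse 678 and 698 were thus the highest and mouse 703 the lowest, as in Fezf2, over a 4.54-fold range. The rest of the list was divided by TPM. Etv1, Pou3f1 and Npr3 were highest in mouse 698, and Deptor, Ldb2 and Fam84b in mouse 678. Bcl11b, Bcl6 and Pcp4 were highest in mouse 703, where Fezf2 was lowest, and Rbp4 was highest in mouse 687.

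In layer 4, 2 of 4 genes reached the ratio. Kcnh5, a potassium channel and the highest of the list, was at 13.7 to 19.3 TPM, and Scnn1a, a sodium channel subunit with the widest range, was at 0.81 to 2.12 TPM, lowest in mouse 703, where Rorb was highest. Among upper-layer genes 4 of 8 did, with Otof, a calcium sensor of vesicle fusion, ranging most (1.41 TPM in mouse 678 to 4.06 in mouse 703). In layer 6 it was 4 of 6, and Rprm, a cell-cycle regulator, ranged most, from 21.7 TPM in mouse 687 to 56.15 in mouse 703. All 4 genes of layer 6b reached the ratio. Cplx3, a complexin, was at 8.09 to 12.73 TPM, and Nxph4, a neurexophilin, was at 1.41 to 1.99 TPM in 5 libraries and 4.68 in mouse 703. Among the 7 other pan-excitatory genes 2 did, and among the 8 pan-neuronal genes 0 did, with Snap25, a SNARE protein of the synapse, at 715 to 1004 TPM and Stmn2, a microtubule regulator, at 78.04 to 130.87 TPM.

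Lists of other cell types and of regions next to the cortex differed in how far they moved between libraries. The ratio of 1.5 over protein-coding genes, reached by 33.9% of detected genes, was reached by 1 of 8 astrocyte and 0 of 8 microglial genes. It was reached by 1 of 8 inhibitory neuron, 3 of 5 endothelial, 2 of 3 detected hippocampal and 4 of 5 thalamic genes. The 8 oligodendrocyte genes summed to 736 TPM in mouse 678, 463 in 687, 497 in 688, 698 in 698, 615 in 700 and 475 in 703, and all 8 reached the ratio of 1.5 over protein-coding genes. The libraries with the most oligodendrocyte RNA (678, 698 and 700) were also those with the most Fezf2. Mbp, of the myelin sheath, was at 192 to 319 TPM, and Opalin, of the myelin paranode, at 2.09 to 5.33 TPM. The 8 striatal genes summed to 60.4 TPM in mouse 678, 116 in 687, 82.8 in 688, 52.9 in 698, 50.8 in 700 and 119 in 703, again with all 8 at the ratio. The libraries with the highest sum of these genes (703, 687 and 688) were those lowest in Fezf2. All of the 8 genes but Gpr6 were highest in these libraries, with mouse 687 rather than 703 leading in Drd2 and Adora2a. Gpr6 was lowest in mouse 703 (1.11 TPM). Ppp1r1b, the phosphatase inhibitor DARPP-32, was at 25.3 to 53.1 TPM, and Adora2a, the adenosine receptor of striatal projection neurons, at 0.29 TPM in mouse 700 to 4.29 in mouse 687. The part of these cells and regions in the levels of Fezf2 and Rorb was not tested.

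Of the 5 hippocampal genes 3 were detected. C1ql2, a synaptic protein of the dentate gyrus, was at 3.81 TPM in mouse 678, 1.78 in 687, 0.84 in 688, 3.8 in 698, 2.2 in 700 and 0.46 in 703, while Prox1, the defining factor of dentate granule cells, was nearly level at 2.38 to 2.97 TPM. Dsp and Spink8 did not pass the filter, at no more than 0.02 and 0.57 TPM. Of the 5 thalamic genes, Slc17a6 (VGLUT2, the glutamate transporter of thalamic and other subcortical neurons) had both the highest level and the widest range, at 10.02 TPM in mouse 678, 8.39 in 687, 4.37 in 688, 8.67 in 698, 6.94 in 700 and 13.01 in 703. Astrocyte genes summed to 820 to 988 TPM, led by the glutamate transporter Slc1a2 (405 to 487), with S100b the widest at 26.7 to 41.7. P2ry12, a purinergic receptor of microglia with the widest range of its list, was at 12.05 to 19.85 TPM. Endothelial genes summed to 19.3 to 29.5 TPM, with Ly6c1 at 9.26 to 13.09 and Cldn5 at 3.84 to 6.90. Inhibitory neuron genes summed to 288 to 379 TPM, led by Sst (147 to 192), and Pvalb, a calcium-binding protein of fast-spiking cells, was widest at 12.69 to 33.56.

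**Figure D5:**
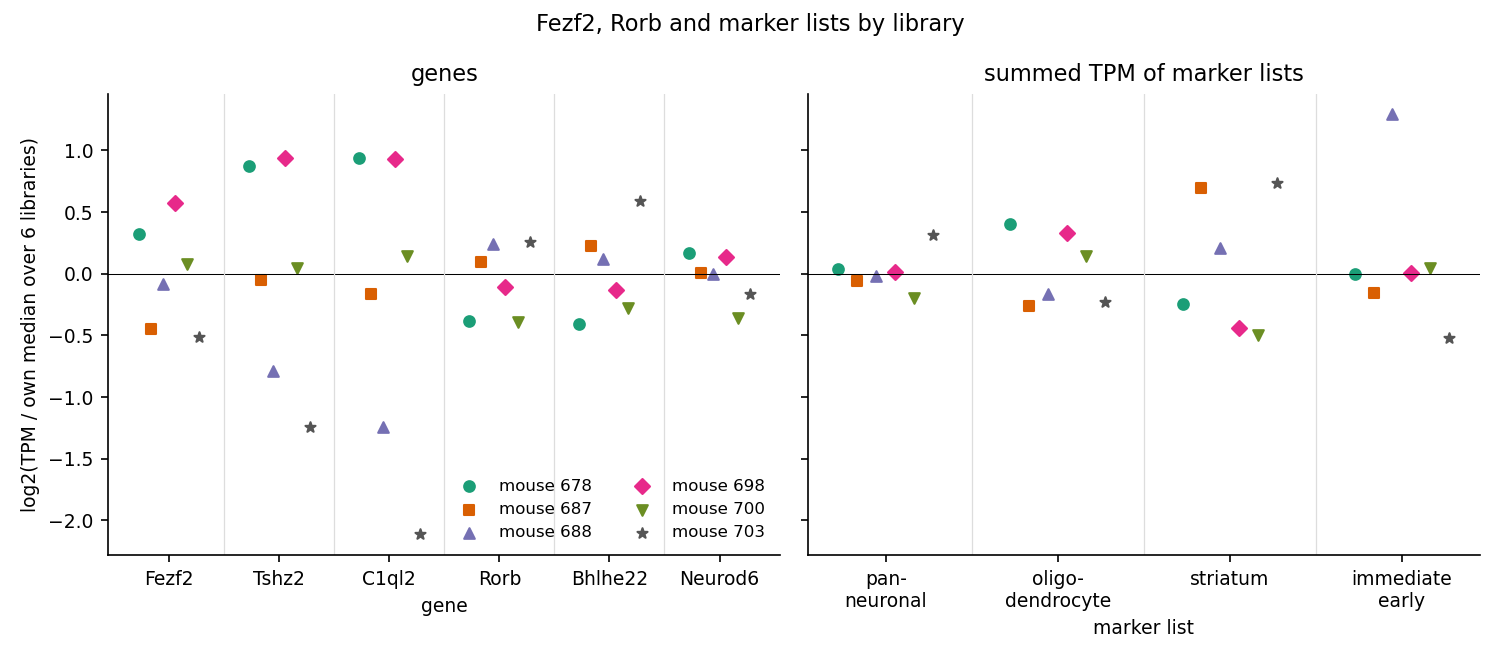
TPM relative to its own median (y axis, log2) by library for 6 genes (left) and for the summed TPM of 4 marker lists (right). Mouse 678 and 698 lie highest in Fezf2, Tshz2, C1ql2 and the oligodendrocyte list, and mouse 703 lies lowest in Fezf2, Tshz2 and C1ql2. Tshz2 and C1ql2 are the genes with the widest range in their lists, and not all genes of these lists share this order. Among those not drawn, Pcp4 of layer 5 was highest in mouse 703, and Fibcd1 of the hippocampus was lowest in mouse 678 (1.5 TPM).

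The members belong to gene families whose other genes are partly present in cortex. The vesicular transporter Slc17a7 exceeded Slc17a6 by 36.2 to 94.99 times within a library, and Slc17a8 (VGLUT3) was at 0.26 to 0.62 TPM. Neurod2 was at 14.6 to 20.3 TPM, with Neurod1 at 3.13 to 6.18, and Neurod4 did not pass the filter (at most 0.08). Eomes and Tbx21, the T-box relatives of Tbr1, were at most at 0.04 and 0.05 TPM. Cux1, the paralog of Cux2, was at 26.7 to 36.6 TPM. Rora, a relative of Rorb, was at 14.3 to 18.2 TPM. Fezf1 was at most at 0.28 TPM. Foxp1 was at 29.97 to 33.37 TPM and Foxp4 at 14.3 to 19.2, both above Foxp2 in every library, while Foxp3 was at most at 0.09.

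The genes most like each member were sought among 13620 detected nuclear protein-coding genes by the same distance on deposited TPM, over the 6 libraries. The nearest to Slc17a7 were Usp9x, Tacc3 and Mtmr9, at distances up to 0.061 where Slc17a7 itself lay 0.42 from a flat profile. Those nearest to Neurod6 were Cacnb4, Hps5 and Sox13, those nearest to Tbr1 were Brsk2, Cul4a and Ruvbl1, and those nearest to Cux2 were Kalrn, Pip5k1a and Hspbap1. Rorb was nearest to Wnt9a, Tmem64 and Hgf (up to 0.156), and Foxp2 to Zfp738, Rad1 and Wdr31. Fezf2 was nearest to 1110032F04Rik, Cldn11 and Runx1t1, at distances of 0.20 to 0.28 and with Fezf2 itself 0.88 from flat. Cldn11, a claudin of myelin, was at 45.19 TPM in mouse 678, 25.84 in 687, 30.03 in 688, 46.89 in 698, 37.09 in 700 and 27.68 in 703. This is the same order of libraries as Fezf2 but for mouse 687 and 703. The likeness follows from the choice of Cldn11 by its distance to Fezf2 on these same values. Within 2 times the distance of the third nearest gene lay between 53 genes (Cux2) and 197 genes (Rorb), so none of these partners is particular to its member.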

How the data were processed

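RNA was sequenced from mouse cortex after rRNA depletion (paired ends, NovaSeq X Plus). The labels name TRIzol and a directional kit, and the study's methods name RNEasy columns. Adapters were removed by the authors with cutadapt, STAR was used for alignment to mm10 and RSEM for quantification. Their versions and the strand setting were not given in the sources used here. Deposited files hold expected counts (not normalized), TPM and effective length (in bases, other unit) per transcript, 18 columns in all. Another 18 (length, FPKM and IsoPct) were not used, and 0 were tied to a genotype. The tissue of each file is inferred from the labels.

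Transcripts (142351, of which 910 did not match and held at most 0.272% of counts) were mapped to GENCODE M21 without version and summed per gene, and expected counts were rounded for intervals. A gene was detected with at least 10 counts in every library. Intervals are exact Poisson at 95%. Alternatives used TMM (edgeR 4.0.16), size factors (DESeq2 1.42.0, R 4.3.3) and TPM over nuclear protein-coding genes. The code for the spread measures was run on simulated Poisson counts with planted patterns. That simulation lacks the differences between libraries beyond sampling noise that these data hold. No test between groups was run. Members and lists were chosen with earlier results of these data known. Genes named from a list are those with the highest median TPM and the largest ratio of highest to lowest library, with all family relatives and the 3 genes nearest each member. Of the genes this rule names, 2 are not reported here.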

Additional observations from a re-analysis of the deposited data

Results flagged for a closer look

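By Dixon's ratio, which chance alone passes in about 1 in 20 groups, 2 of 34 sets of 6 values (7 members, 16 marker lists by summed TPM and 11 ratios within a library) had 1 library far from the other 5. Mouse 688 held a summed TPM of 721.8 over 12 immediate early genes, the fast response genes of active neurons, where the other 5 libraries held 206 to 305. All 12 were highest in mouse 688 and reached a ratio of 1.5 over protein-coding genes, which 33.9% of detected genes reached. Egr1 had the highest level (94.92 to 201.9 TPM) and Npas4 the widest range (1.83 to 16.88 TPM). In the same library Slc17a7 exceeded Slc17a6 by 94.99 times, where the other 5 libraries lay at 36.2 to 49.9 times. Mouse 688 was not far from the others in any of the 7 members, and the cause of both values was not tested.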

How the results depend on the processing

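No paired analysis was possible because the columns carry no replicate number and no result comes from a test. The order of the members kept 3 of 7 places with TMM-scaled counts per kilobase (Tbr1 above Cux2, Fezf2 above Rorb) and 5 of 7 over protein-coding genes. Without 1 library it kept 5 to 7 places, with Rorb and Fezf2 exchanged without mouse 687, 688 or 703. The ratio of upper-layer to deep-layer members (median 1.11) was 2.14 by geometric mean and 0.581 with the full layer lists, and 1.10 to 1.12 without 1 library. It was not taken with the long-frame Cux2 transcripts alone. Of the 21 similar genes, 10 were named again with log2(TPM + 0.1) and 19 with no filter on counts. The TOP count went from 0 to 1 with the start allowed within 5 bases. The members' median ratio of highest to lowest library (1.43) stayed at 1.38 to 1.45 across scalings and at 1.39 to 1.43 without 1 library. Over all detected genes the median fell from 1.49 by TPM to 1.31 with TMM-scaled CPM or DESeq2 size factors. The ratio of Tbr1 fell from 1.43 to 1.09 relative to the pan-neuronal sum, an alternative added after seeing the data, while that of Fezf2 rose from 2.12 to 2.60. With TMM-scaled CPM, not divided by length, the ratio of Foxp2 rose from 1.31 to 1.59. Relative to the pan-neuronal sum, the ratio of Neurod6 rose from 1.44 to 1.52. Each thus passed 1.5 on that scale. The share of all detected genes that reach 1.5 was not taken on these scales. Their median ratio was 1.31 with TMM-scaled CPM and 1.37 relative to the pan-neuronal sum. The background share of genes with 1 library far from the others was 17.9% with no filter on counts. Besides the main results, 85 values were taken under an alternative, all of single genes except the background share just given. Of these, 53 moved by less than their counting interval or spread, and 32, that share included, were counted as moved. The causes of these shifts were not tested. Foxp2 (368 to 606 counts) is the member that depth limits most.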

Other observations

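Larp1, the gene deleted in the cKO mice, was at 19.96 TPM in mouse 678, 18.77 in 687, 6.28 in 688, 6.44 in 698, 17.48 in 700 and 7.32 in 703. These 6 values fell into 2 clusters of 3 libraries with no value between 7.32 and 17.48 TPM. Genotype was not taken from them, and the 7 marker genes were not compared between the clusters.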
